A study of Homo sapiens with 3 samples.

Results

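The 2 guide libraries of this series, sgL1ASP #1 and sgL1ASP #3, were compared directly with each other, out of 3 libraries in all. All 3 were made from 293T, an established line of human embryonic kidney cells, and all 3 carried transiently expressed dCas9-VP64, a Cas9 that cannot cut DNA fused to a transcriptional activator. The guide libraries also expressed sgL1ASP #1 or sgL1ASP #3, and the mock library received the parental guide vector with no L1 guide. Poly(A) RNA was measured in 1 library per condition, so the differences below stand without replicates and without p-values. A transient transfection yields a mixed population of cells, and fewer cells of a kind and less RNA per cell cannot be told apart. The time at which RNA was taken is not given in the sources used here.

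LINE-1 (L1) is a retrotransposon present in many copies across the human genome, and its 5' end holds a sense promoter that drives the element and an antisense promoter (ASP) that transcribes outward into the neighbouring DNA. The antisense transcript can carry ORF0, a small open reading frame, or join to exons of a nearby gene. Both guides were designed to bring the activator to the ASP, at different places within it. The comparison of #1 with #3 addresses what separates 2 guides aimed at the same promoter.

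FPKM (mapped fragments, normalized to transcript length and library size) was listed for 23284 genes. Of these, 12464 genes (53.5%) had FPKM of at least 1 in both guide libraries and were compared by the difference of log2(FPKM + 0.1), #1 minus #3, a scale that understates differences of genes with low FPKM. A further 301 genes reached FPKM 1 in #1 alone, 265 in #3 alone, and 10254 in neither. The depth, estimated from the spacing of the lowest values, was 10400000 reads in mock, 10300000 in #1 and 8700000 in #3, so that a single read was worth 0.8419 times as much FPKM in #1 as in #3. Of 20 genes typical of 293T, 16 had FPKM of at least 1 in each library. VIM, the mesenchymal filament vimentin, had 807 in mock, 904 in #1 and 862 in #3. The marker lists were chosen with earlier results of these data known, so they do not test the identity of the cells. Of 15 blood cell markers 2 to 4 reached FPKM 1, with summed FPKM of 7.54 to 9.81. Of 12 fibroblast markers 4 did, with summed FPKM of 53.3 to 57.4, and of 12 epithelial markers 1 did, with summed FPKM of 2.58 to 3.25.

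Of the 17 microRNA genes compared, 5 (29.4%) were more than 1.5-fold apart between the guides, against 2.17% of all genes. The mature sequences are shown because a microRNA acts through its seed, bases 2 to 8, here in capitals. MIR922 and MIR1182 were higher in #1, and MIR25, MIR622 and MIR637 were higher in #3. For MIR25 and MIR637 the FPKM ratio was one that 1 to 3 and 2 to 3 reads, or multiples of them, would give, as described below. The sequences are those of RefSeq (GRCh38.p14), written 5' to 3'.
hsa-miR-922: gCAGCAGAgaauaggacuacguc
hsa-miR-1182: gAGGGUCUugggagggaugugac
hsa-miR-25-3p: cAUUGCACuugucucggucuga
hsa-miR-25-5p: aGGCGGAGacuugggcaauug
hsa-miR-622: aCAGUCUGcugagguuggagc
hsa-miR-637: aCUGGGGGcuuucgggcucugcgu
No pair among these 6 sequences shared a seed. The FPKM values are for the whole gene and do not tell the arms of a precursor apart, and an mRNA library of this kind does not measure the mature microRNA.

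The 2 guide libraries lay close together. The median difference over the 12464 genes was -0.0036, the median absolute difference was 0.0908, and 5% of genes lay below -0.30 and 5% above 0.30. More than 1.5-fold higher FPKM was found in #1 for 131 genes (1.05%) and in #3 for 139 genes (1.12%), which makes 270 genes (2.17%) past 1.5-fold in all. More than 2-fold higher FPKM was found for 30 genes in #1 and for 34 in #3. Over the 12347 genes with FPKM of at least 1 in every library, the median absolute difference was 0.0900 between the guides, 0.0905 between #1 and mock and 0.0909 between #3 and mock. The share past 1.5-fold over the same genes was 2.02% between the guides, 1.87% between #1 and mock and 2.04% between #3 and mock. The 3 pairs share libraries, and the difference between these shares was not tested.

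Most genes past 1.5-fold were genes of low FPKM or genes of small RNAs. Among genes with a mean FPKM (geometric, over both guide libraries) of 1 to 2, 9.55% were past 1.5-fold, among those at 2 to 5, 5.06%, at 5 to 10, 1.16%, and at 10 to 20, 0.274%. From there the share was higher again, at 0.409% for 20 to 50, 0.854% for 50 to 100 and 2.27% above 100. Of the 39 genes past 1.5-fold with a mean FPKM of 20 or more, 37 were genes of the small RNA classes described below. Of the 4311 protein-coding genes at that level that were neither histone nor readthrough-related genes, 0 were past 1.5-fold, and the differences of these genes ran from -0.44 to 0.54. The remaining 2 were PCNA-AS1, an RNA antisense to the replication clamp gene PCNA, and SNAR-G1. The latter is also a small RNA, of the primate snaR family, but is not in the classes counted here. PCNA-AS1 had FPKM 21.0 in mock, 44.8 in #1 and 107.0 in #3, and SNAR-G1 had 0 in mock, 28.4 in #1 and 101 in #3. The difference of SNAR-G1 was -1.83, a value described below as a step that single reads make.

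**Figure D1:**
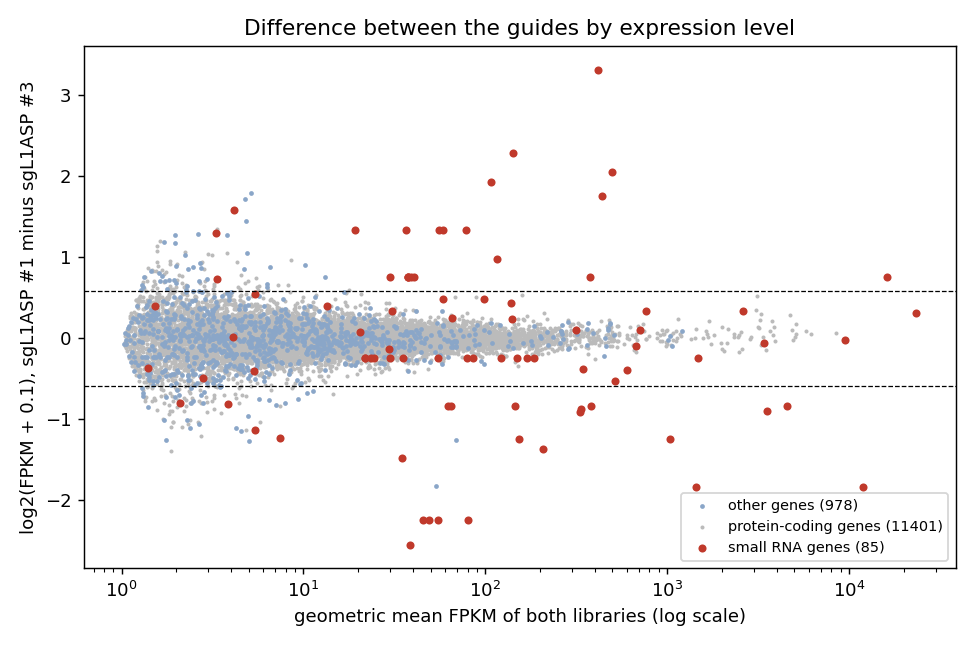
Each point is 1 of the 12464 genes with FPKM of at least 1 in both guide libraries, with the geometric mean FPKM of both libraries on a log axis and the log2(FPKM + 0.1) difference, sgL1ASP #1 minus sgL1ASP #3, on the other. Dashed lines mark 1.5-fold. Protein-coding genes (grey) narrow towards 0 with rising FPKM. Of the 85 small RNA genes (red), 37 have a mean FPKM of 20 or more and are past 1.5-fold.

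Small RNAs are processed from longer transcripts or made as short transcripts of their own. Small nucleolar RNAs (snoRNAs) guide the chemical modification of ribosomal RNA, C/D box snoRNAs by methylation and H/ACA snoRNAs by pseudouridylation, and most human snoRNAs sit in introns of host genes. Of the 18 C/D box snoRNA genes compared, 9 (50%) were past 1.5-fold, 4 higher in #1 and 5 higher in #3. Of the 48 H/ACA snoRNA and Cajal body RNA genes, 30 (62.5%) were past 1.5-fold, 15 in each direction. The 17 microRNA genes held 5 past 1.5-fold (29.4%), 2 higher in #1 and 3 higher in #3. With the 2 polymerase III RNAs, RMRP and RPPH1, the small RNA classes held 22 genes higher in #1 and 23 higher in #3 among 85, against 2.17% of all genes past 1.5-fold in either direction. Thus the FPKM of many small RNA genes was past 1.5-fold between the guide libraries, with no surplus of either direction. For 33 of these 45 genes the FPKM ratio was one that whole read numbers would give, as described below. With 1 library per condition, whether the guides themselves differed at these genes was not tested. How far FPKM from poly(A) RNA follows the mature snoRNAs and Cajal body RNAs was not tested either. The median difference was -0.25 for C/D box snoRNA genes, -0.19 for H/ACA and Cajal body RNA genes and -0.25 for microRNA genes.

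The largest difference of all was that of MIR922, at chr3:197401367-197401447 on the minus strand (hg19), inside KIAA0226, which encodes the autophagy regulator Rubicon. MIR922 had FPKM 281 in mock, 1317 in #1 and 133 in #3, a log2 difference of 3.31. MIR1182, at chr1:231155574-231155670 on the minus strand in FAM89A, had 43.1 in mock, 313 in #1 and 64.4 in #3, a difference of 2.28. Both were highest in #1, with mock nearer to #3. On the other side stood MIR25, at chr7:99691183-99691266 on the minus strand, which lies in an intron of MCM7, a subunit of the replicative helicase. MIR25 had FPKM 756 in mock, 766 in #1 and 2734 in #3, a difference of -1.83. MIR622 had 5639 in mock, 2580 in #1 and 4816 in #3 (-0.90), and MIR637 had 0 in mock, 287 in #1 and 511 in #3 (-0.83).

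Among the C/D box snoRNAs, SNORD21 had FPKM 0 in mock, 1009 in #1 and 244 in #3, a difference of 2.05. SNORD83A, of the ribosomal protein gene RPL3, had 398 in mock, 807 in #1 and 240 in #3, a difference of 1.75. SNORD28 had 0 in mock, 21143 in #1 and 12557 in #3 (0.75). Higher in #3 were SNORD100 of RPS12, with 12440 in mock, 6301 in #1 and 22454 in #3 (-1.83), SNORD58C of RPL17, with 1659 in mock, 672 in #1 and 1597 in #3 (-1.25), and SNORD124 of MED24, with 0, 99.5 and 236 (-1.25). In SNORD100 mock lay between the guides, and in SNORD58C it was close to #3.

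The H/ACA snoRNAs with the largest differences were SNORA9 on the side of #1 and SNORA43, SNORA26, SNORA45, SNORA52 and SNORA65 on the side of #3. SNORA9 had FPKM 23.0 in mock, 210 in #1 and 55.4 in #3 (1.92). SNORA43 had 0 in mock, 15.8 in #1 and 92.9 in #3 (-2.55). The other 4 had differences of -2.24 or -2.25, and in #3 they ranged from 99.0 for SNORA65 to 175 for SNORA26. At higher levels, SNORA10 had 161 in mock, 163 in #1 and 83.1 in #3 (0.97), SNORA48 had 149, 130 and 334 (-1.36), and SNORA67 had 297, 241 and 453 (-0.91). SCARNA9, a Cajal body RNA that guides the modification of spliceosomal RNA, had 1.96 in mock, 7.28 in #1 and 2.36 in #3 (1.59), and SNORA71B, one of a family of similar copies among which reads may be split, had 0, 125 and 49.5 (1.33). RPPH1, the RNA of RNase P, had 0 in mock, 4.32 in #1 and 2.56 in #3 (0.73).

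The repeated values of -2.24 and -1.83 follow the steps that single reads make. If both libraries counted whole reads of a gene of fixed length, the FPKM ratio of the libraries divided by 0.8419 would be a ratio of whole numbers. This was the case, with numbers up to 8 and within 0.2%, for 58 of 85 small RNA genes (68.2%), for 33 of the 45 past 1.5-fold (73.3%), and for 8.86% of 6708 protein-coding genes with a mean FPKM of at least 10. In the 33 genes the ratio of #1 to #3 was 2 to 1 in 9, 2 to 3 in 7, 3 to 1 in 6, 1 to 4 in 4, 1 to 2 in 3, 1 to 3 in 2, and 4 to 1 and 7 to 3 in 1 each. These are the smallest numbers that give the ratio, and any multiple gives it too.

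Read in this way, SNORA26 and SNORA45 stood at 2 reads in mock, 1 in #1 and 4 in #3, SNORA52 at 5, 1 and 4, and SNORA65 at 1, 1 and 4. MIR25 stood at 1, 1 and 3, and SNORD100 at 2, 1 and 3, with FPKM of 6301 or more in every library. SNORD83A stood at 2, 4 and 1, SNORD28 at 0, 2 and 1, SNORD58C at 5, 2 and 4, and SNORA71A at 2, 3 and 1. A ratio of equal read numbers gives a log2 value of -0.25, which is also the median difference of the C/D box snoRNA and microRNA genes. In #1, 33 of 145 small RNA genes above 0 shared the same FPKM with another small RNA gene, and in #3, 25 of 123 did. MIR922, MIR1182, SNORD21, SNORA9 and SNORA43 gave no such ratio.

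**Figure D2:**
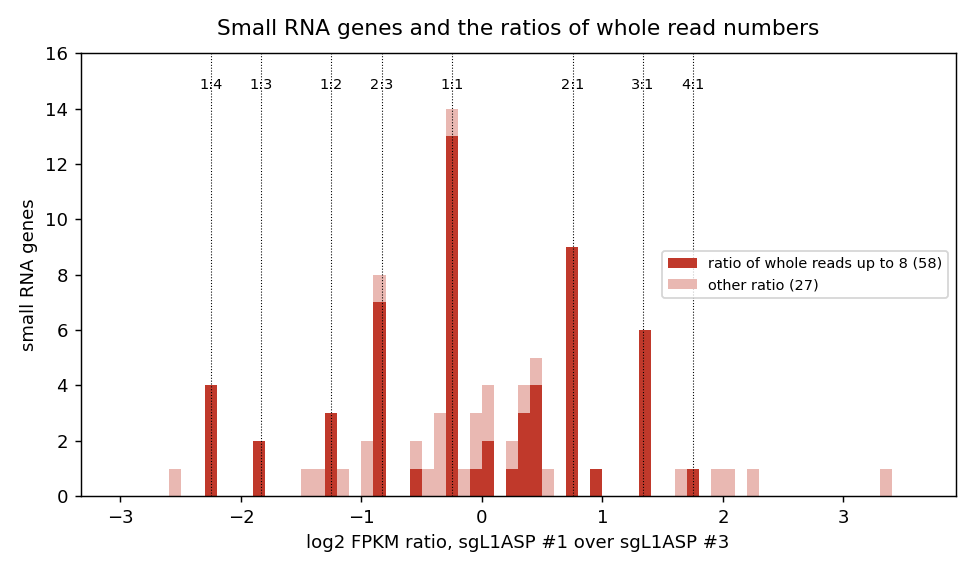
The bars count the 85 small RNA genes by the log2 ratio of their FPKM, sgL1ASP #1 over sgL1ASP #3, in bins of 0.1, with no pseudocount. Dotted lines mark the ratios that whole read numbers would give, and the dark bars are the 58 genes whose ratio is one of whole reads up to 8, within 0.2%.

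The host genes of these small RNAs were not past 1.5-fold. A gene on the same strand that contained the small RNA was found for 28 of the small RNA genes past 1.5-fold. The 25 host genes had a median difference of 0.014, the largest was 0.23, and 0 were past 1.5-fold. Many of these hosts were abundant, and of 4311 protein-coding genes with a mean FPKM of 20 or more, 0 were past it either. Many of the small RNA values gave ratios of small whole numbers of reads, as described above. Whether the small RNAs moved with their hosts was therefore not tested. MCM7, the host of MIR25, had FPKM 248 in mock, 246 in #1 and 248 in #3. RPLP2, the host of SNORA52, had 3546, 3780 and 3563, and RPS12, the host of SNORD100, had 1916, 2099 and 1911. The difference of 0.23 was that of RPL27A, the host of SNORA45, with 161 in mock, 174 in #1 and 148 in #3, so that here the host was higher in #1 and the snoRNA higher in #3. Of 15 noncoding host genes of snoRNAs, 10 were higher in #1, with a median of 0.09 and 0 past 1.5-fold. SNHG6 had 454, 519 and 459, and GAS5 had 351, 353 and 373, the latter higher in #3.

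Of the 301 genes that reached FPKM 1 in #1 alone, 58 were at 0 in #3, and 52 of these were genes of small RNAs. Of the 265 that did so in #3 alone, 45 were at 0 in #1, and 33 of these were genes of small RNAs. Over all 23284 listed genes, 7412 were at 0 in a guide library, and 1525 of the 1614 small RNA genes were. The estimated depth was lower in #3, and how far depth set these zeros was not tested. SNORD26 was listed at 0 in mock, 0 in #1 and 12557 in #3, the FPKM that SNORD28 also had in #3. For SNORD28 this FPKM was read above as 1 read or a multiple, so a high FPKM here need not mean many reads. MIR4800 was listed at 2367 in mock, 2646 in #1 and 0 in #3, and MIR324 at 1802, 1824 and 0. Outside the histone clusters and readthrough loci, 3 protein-coding genes on each side were at 0 in the other library. KLK1, the tissue kallikrein, had 0.714 in mock, 1.59 in #1 and 0 in #3, and KRTAP19-5, a hair keratin-associated protein, had 0 in mock, 0 in #1 and 3.29 in #3. No fold change is given for these genes.

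Readthrough genes, which join exons of 2 neighbouring genes into 1 listed transcript, were described together with their parent genes. Of the 32 readthrough genes with FPKM of at least 1 in both libraries, 7 (21.9%) were past 1.5-fold, against 2.17% of all genes, 4 higher in #1 and 3 higher in #3. Their parent genes were past 1.5-fold in 10 of 169 cases (5.92%). MUTED-TXNDC5, which joins a subunit gene of a lysosome biogenesis complex to a disulfide isomerase gene, had FPKM 12.8 in mock, 9.65 in #1 and 2.73 in #3, a difference of 1.79 with a counting interval of 1.40 to 2.17. COMMD3-BMI1, which includes the Polycomb gene BMI1, had 3.82 in mock, 8.06 in #1 and 2.91 in #3 (1.44). GPR75-ASB3 lay on the other side, with 1.03 in mock, 1.58 in #1 and 3.53 in #3 (-1.11).

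In several of these loci a parent gene stood the other way round. C17orf61-PLSCR3 had FPKM 5.77 in mock, 5.83 in #1 and 0.593 in #3, and its parent PLSCR3, a phospholipid scramblase, had 3.17, 3.21 and 7.91. JMJD7-PLA2G4B had 0.000826 in mock, 3.10 in #1 and 0.00742 in #3, and its parent PLA2G4B, a cytosolic phospholipase, had 7.49, 4.36 and 7.42. MUTED had 1.44, 5.98 and 10.5, in the reverse order of MUTED-TXNDC5. The FPKM of each readthrough gene and its parent genes was also summed, over 103 loci where any of them reached FPKM 1 in a guide library. Here 35 readthrough genes were past 1.5-fold, 28 of them with FPKM under 1 in a guide library and some near 0 in both, and 0 of the 103 sums were. For these 35 the median absolute difference was 1.46 for the readthrough gene and 0.087 for the sum. The locus of JMJD7-PLA2G4B summed to 15.7 in mock, 15.8 in #1 and 15.5 in #3. The locus of COMMD3-BMI1 summed to 73.6, 75.8 and 75.4. At the 35 loci, the higher FPKM of the readthrough gene was a median of 4.49% of the larger sum, with a range of 0.196% to 38.4%, so that at most of them the sum could hardly move with the readthrough gene.

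Ordinary protein-coding genes, outside the histone clusters and readthrough loci, were past 1.5-fold in 153 of 11401 cases (1.34%), 71 higher in #1 and 82 higher in #3. Of the 153 genes, 137 had a mean FPKM under 5. A counting interval of 95% was set from the estimated reads of each gene, and it covers counting error only, not the spread between cultures. Of the 213 genes past 1.5-fold that had an interval, it lay clear of 0 for 101 (47.4%), and the median of the lower read number was 18.3. Over all 12122 genes with an interval it lay clear of 0 for 8.36%.

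Among the 8 protein-coding genes most above #3 in #1, CBR3 stood first. It encodes a carbonyl reductase and lies at chr21:37507377-37518860 on the plus strand. CBR3 had FPKM 3.53 in mock, 5.39 in #1 and 2.06 in #3, a difference of 1.34 with a counting interval of 0.48 to 2.2, and so stood above mock with #1 and below mock with #3. ZNF551, a zinc finger gene at chr19:58193337-58228669 on the plus strand, had 1.93, 2.32 and 1.05, a difference of 1.07 with an interval of 0.21 to 1.94. NUDT6, a Nudix hydrolase gene that overlaps FGF2 on the opposite strand, at chr4:123809852-123844123 on the minus strand, had 2.12, 4.33 and 2.05 (1.04). HIST1H2AM, a histone H2A gene, had 1.71, 3.11 and 1.23 (1.27), with an interval of -0.59 to 3.13 that included 0. EFCAB10, LCN6, C9orf169 and LOC728819 had differences of 1.20, 1.14, 1.07 and 1.05. The interval included 0 for EFCAB10 (-0.21 to 2.61), LCN6 (-0.22 to 2.49) and C9orf169 (-0.16 to 2.29), and not for LOC728819 (0.37 to 1.72). For EFCAB10, a gene of an EF-hand protein, mock was highest, with 3.91 against 2.52 in #1 and 1.04 in #3.

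Among the 8 protein-coding genes most above #1 in #3 were a receptor, a homeobox gene and a globin. HTR6, a serotonin receptor gene at chr1:19991368-20007459 on the plus strand, had FPKM 1.71 in mock, 1.25 in #1 and 2.77 in #3, a difference of -1.09 with an interval of -1.61 to -0.58. GSC, the homeobox gene goosecoid of the early embryo, at chr14:95234560-95236450 on the minus strand, had 2.04, 1.57 and 3.39 (-1.06, -1.96 to -0.16). In both genes mock lay between the guides. RPS26, a ribosomal protein gene with near-identical copies among which reads may be split, had 5.02, 3.25 and 7.25 (-1.13), and its values are uncertain for that reason. HBA1, an alpha globin gene whose copy HBA2 is near identical, had 0.259, 1.31 and 2.80 (-1.04), with an interval of -2.69 to 0.60. C2orf82, C1orf182, C1orf228 and HIST1H3H had differences of -1.39, -1.20, -1.09 and -1.06, and FPKM of at most 4.23 in either guide library. The interval included 0 for C2orf82 (-3.04 to 0.26) and C1orf182 (-2.56 to 0.16). It lay clear of 0 for C1orf228 (-2.17 to -0.02) and HIST1H3H (-2.05 to -0.06).

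**Figure D3:**
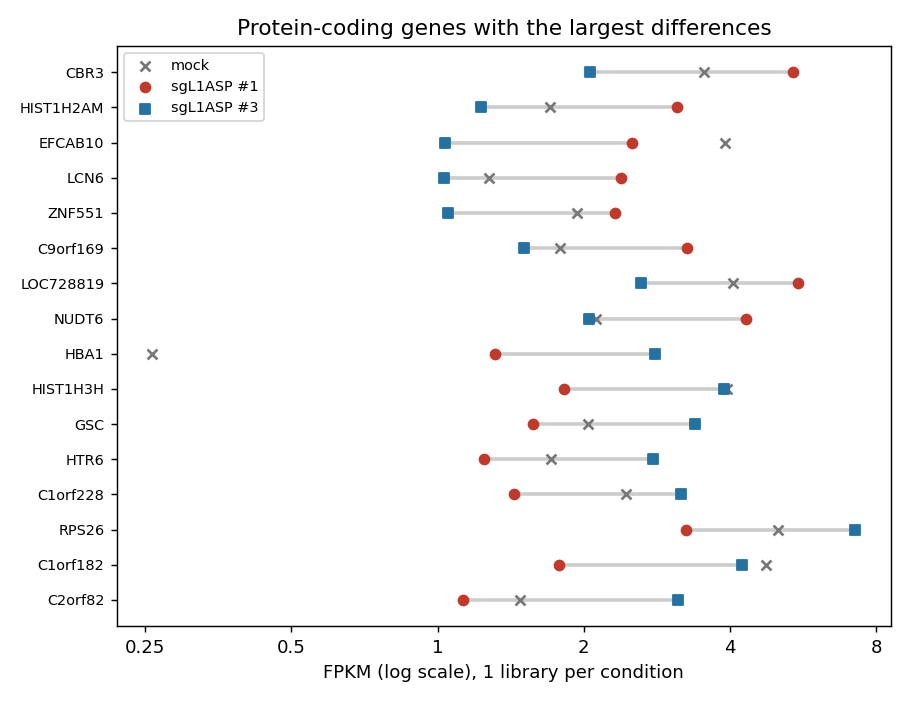
FPKM on a log axis of the 8 protein-coding genes with the highest and the 8 with the lowest difference between the guides, in mock (cross), sgL1ASP #1 (circle) and sgL1ASP #3 (square), with 1 library per condition and no error bar. All 16 genes lie between FPKM 1.03 and 7.25 in the guide libraries.

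Genes with more reads behind them were looked at separately, by limits chosen after the values were seen. With at least 100 estimated reads in both libraries, 8348 genes were compared, of which 0 were more than 1.5-fold higher in #1 and 3 in #3. OSTN, which encodes the secreted peptide osteocrin, had FPKM 9.81 in mock, 3.98 in #1 and 8.27 in #3, a difference of -1.04 with a counting interval of -1.36 to -0.72. MED27, a subunit gene of the Mediator complex, had 14.0, 11.4 and 18.5 (-0.69, -1.02 to -0.36). The other gene was PLA2G4B, a parent of the readthrough gene described above. OSTN was thus the best counted gene past 2-fold, and its mock value was close to that of #3.

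With at least 300 estimated reads in both libraries, 0 of 4575 genes were past 1.5-fold, the median absolute difference was 0.0623, and the counting interval lay clear of 0 for 605 genes (13.2%). Ribosomal protein genes stood at both ends. RPS29, of the small ribosomal subunit, had FPKM 3058 in mock, 3741 in #1 and 2601 in #3, a difference of 0.52 with an interval of 0.49 to 0.56. RPS24 had 2986, 3460 and 2730 (0.34), and RPL7 had 134, 134 and 171 (-0.35). SUGT1, a co-chaperone of HSP90, had 17.8, 19.8 and 14.4 (0.45), and OGFRL1, ZNF75D, PSMC3IP, CA8 and B3GALT6 followed with differences of 0.41, 0.36, 0.33, 0.32 and 0.31. MRPS11, of the mitochondrial ribosome, had 28.0, 21.3 and 27.9 (-0.39), ALG3, a mannosyltransferase of N-glycosylation, had 50.4, 42.6 and 55.6 (-0.38), and MRRF, the mitochondrial ribosome recycling factor, had 30.1, 25.7 and 33.6 (-0.38). ZBTB24, TSEN15, TMX4 and NCOA5 lay between -0.37 and -0.34.

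Gene families and functional groups were described by their counts and medians, against 48.8% of all genes higher in #1 and a median of -0.0036. The 41 families, pathways and marker groups with at least 10 compared members had medians from -0.09 for interferon-stimulated genes to 0.11 for collagens, and 20 of the 41 medians were above 0. Over the 27 lists on L1, growth, stress and metabolism, 5 of 497 compared genes (1.01%) were past 1.5-fold, against 2.17% of all genes. The share was 1.34% for protein-coding genes outside the histone clusters and readthrough loci. With a pseudocount of 1 none of the 5 listed genes was past 1.5-fold (0 of 5). No member of the L1 or metabolism lists was among these 5 genes.

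**Figure D4:**
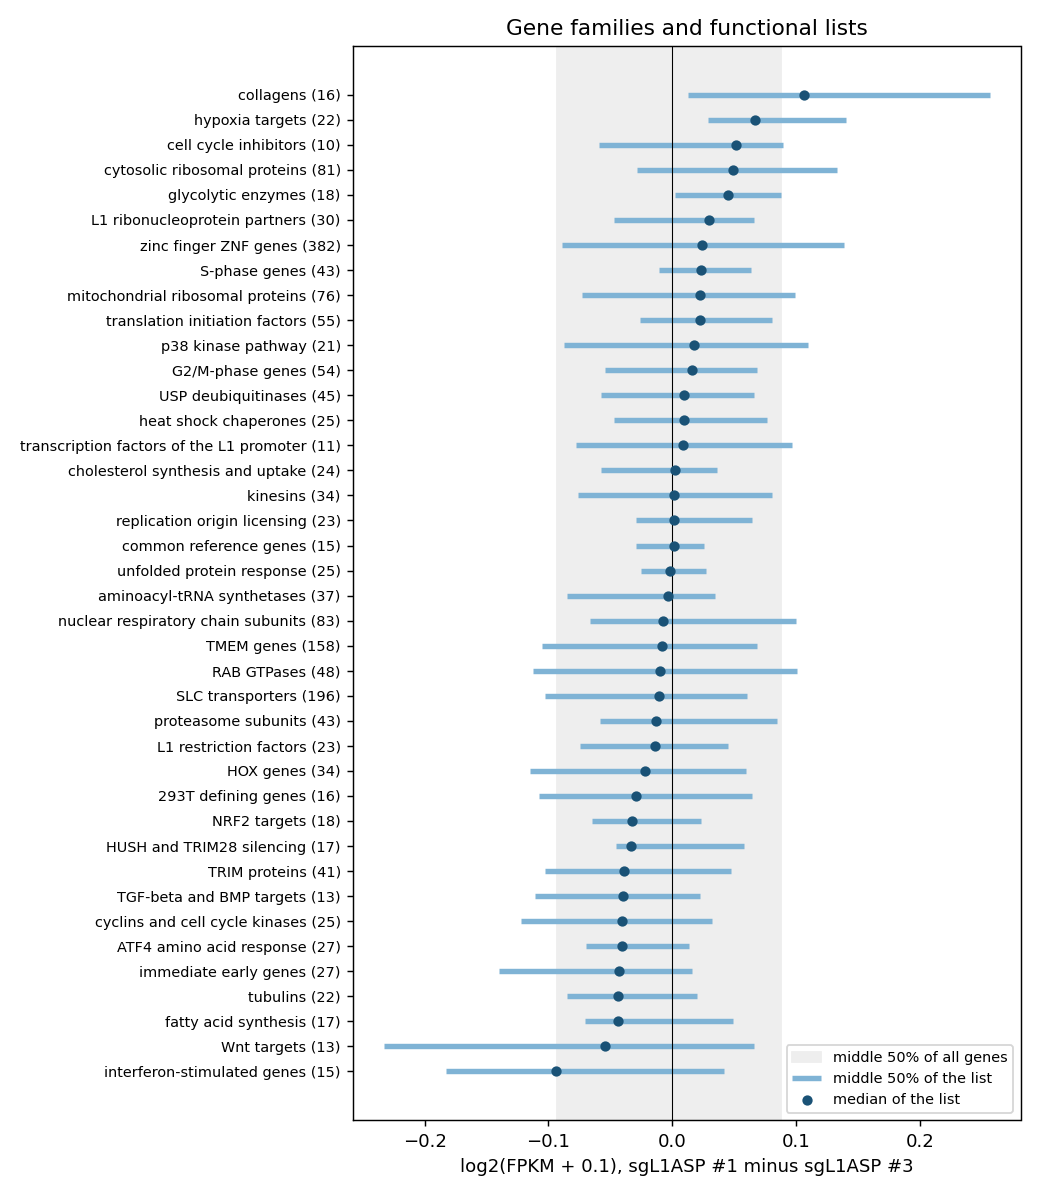
For each family or functional list with at least 10 compared genes (number in brackets, 1 list not shown), the point is the median log2(FPKM + 0.1) difference, sgL1ASP #1 minus sgL1ASP #3, and the line covers the middle 50% of the list. The grey band covers the middle 50% of all genes, and the medians of collagens (0.11) and, at its edge, interferon-stimulated genes (-0.09) lie outside it.

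The median absolute difference was 0.063 over the 84 compared genes on L1 lists, against 0.0908 over all 12464 genes under the same filter. Over genes with at least 300 estimated reads, a stricter filter, it was 0.0623. Of 23 L1 restriction factors compared, 8 were higher in #1, the median was -0.01 and 0 were past 1.5-fold. TEX19, which is known to promote the loss of the L1 protein ORF1p, had FPKM 6.72 in mock, 5.41 in #1 and 7.55 in #3 (-0.47). TREX1, a cytosolic DNA exonuclease, lay on the other side with 5.46, 5.88 and 4.70 (0.32). Of the APOBEC3 cytidine deaminases, 4 of 7 were compared, and APOBEC3B (0.32) and APOBEC3D (0.24) were higher in #1 while APOBEC3C (-0.25) and APOBEC3F (-0.54) were higher in #3. None was past 1.5-fold.

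The 11 transcription factors known to act at the L1 promoter had a median of 0.01, with 6 higher in #1. YY1, which positions transcription initiation at the sense promoter, had FPKM 54.6 in mock, 55.8 in #1 and 50.9 in #3 (0.13), and SOX2 had 2.06, 3.05 and 2.34 (0.37). SP1 (-0.08) and LEF1 (-0.12) were among those higher in #3. The HUSH and TRIM28 silencing genes had a median of -0.03 over 17 genes, from MPHOSPH8 (0.15), the chromodomain subunit of HUSH, to PPHLN1 (-0.09), also of HUSH. Of 30 proteins that bind the L1 ribonucleoprotein, 19 were higher in #1, with a median of 0.03, and NCL, the nucleolar protein nucleolin, had 485, 504 and 464 (0.12). Only 4 of 19 genes of cytosolic nucleic acid sensing reached the limit of FPKM 1 in both libraries, and their differences lay between -0.12 and 0.04.

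The genes of cell growth had a median absolute difference of 0.064 over 167 genes, of which 1 was past 1.5-fold. The median absolute difference was 0.0908 over all genes under the same filter and 0.0623 under the stricter one of at least 300 estimated reads. S-phase genes were higher in #1 in 29 of 43 cases, with a median of 0.02, and G2/M-phase genes in 32 of 54, with a median of 0.02, and 0 of either list were past 1.5-fold. Cyclins and cell cycle kinases were higher in #1 in 8 of 25 cases (median -0.04). The cell cycle inhibitors had a median of 0.05 over 10 genes, with CDKN1A, the inhibitor p21, at 18.1 in mock, 18.5 in #1 and 21.2 in #3 (-0.20), and CDKN1B, the inhibitor p27, at 14.5, 15.2 and 13.6 (0.16). The 3 genes of cell cycle and signalling that the study followed were alike in both guides. CLASP1, which stabilizes microtubules, had 9.40, 9.70 and 9.63 (0.01). MAPK12, a p38 kinase, had 50.2, 60.2 and 56.3 (0.10), and CHFR, a mitotic checkpoint ubiquitin ligase, had 12.8, 13.4 and 13.3 (0.01).

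Among the stress lists, hypoxia targets leaned towards #1, with 18 of 22 higher there and a median of 0.07, but 0 past 1.5-fold. KDM3A, a histone demethylase induced by hypoxia, had FPKM 26.5 in mock, 32.0 in #1 and 26.3 in #3 (0.28, interval 0.17 to 0.40), and HK2, a hexokinase, had 24.2, 30.3 and 27.4 (0.14). VEGFA, the vascular growth factor, had 95.6, 105 and 107 (-0.03), and ANKRD37 had 2.92, 1.90 and 2.83 (-0.55). Glycolytic enzymes, some of which are hypoxia targets too, were higher in #1 in 13 of 18 cases, with a median of 0.04, and LDHB had 927, 976 and 911 (0.10) while PGAM1 had 23.3, 25.5 and 30.5 (-0.26).

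Interferon-stimulated genes leaned the other way, with 5 of 15 higher in #1 and a median of -0.09. ISG15, a ubiquitin-like modifier, had FPKM 15.4 in mock, 16.8 in #1 and 20.8 in #3 (-0.30), and USP18, which removes it, had 3.65, 4.43 and 3.01 (0.54). IFI27 was the member past 1.5-fold, with 5.84, 2.85 and 4.69 (-0.70), and an interval of -1.76 to 0.36 that included 0. STAT2, a transcription factor of the response, had a difference of 0.05. The direction thus differed between members, and 28 of the 43 listed genes were not compared because FPKM was under 1 in a guide library.

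Immediate early genes, the first genes that growth factors induce, were higher in #1 in 8 of 27 cases, with a median of -0.04. ZFP36, an mRNA decay factor, had 1.67 in mock, 1.94 in #1 and 1.19 in #3 (0.66), and FOS had 1.56, 1.34 and 2.23 (-0.70), both with intervals that included 0. ATF4 targets (9 of 27 higher in #1, median -0.04), NRF2 targets (6 of 18, -0.03) and the unfolded protein response (11 of 25, 0.00) had 0 genes past 1.5-fold. Among the heat shock chaperones 1 of 25 was past it, HSPA2, with 2.53, 2.75 and 1.74 (0.63, interval 0.16 to 1.09).

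Collagens had a median of 0.11, with 13 of 16 higher in #1 and 0 past 1.5-fold. With FPKM of at least 5 in both libraries the median was 0.034 for collagens and 0.10 for hypoxia targets. COL18A1, of basement membranes, had FPKM 3.92 in mock, 6.20 in #1 and 5.06 in #3 (0.29, interval 0.04 to 0.53), COL6A1, the most abundant of those named, had 62.5, 63.3 and 64.3 (-0.02), and COL1A1 had 2.55, 1.99 and 2.46 (-0.30). Cytosolic ribosomal proteins were higher in #1 in 55 of 81 cases, with a median of 0.05. RPL26 (0.30) and RPL36 (0.28) were among those higher in #1 and RPSA (-0.20) among those higher in #3. RPS28 was past 1.5-fold with 1.64, 3.88 and 1.97 (0.94), a ratio of 7 to 3 whole reads or a multiple, and RPS26 was past it in the other direction. Length classes were set only for the 6708 protein-coding genes with a mean FPKM of at least 10, outside the histone clusters and readthrough loci. Among these, transcripts of at most 500 bases were higher in #1 in 28 of 40 genes with a median of 0.05. The other length classes had medians between -0.01 and 0.01. How much of the ribosomal protein difference moved with transcript length was not tested.

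The zinc finger ZNF genes, the largest family compared, were higher in #1 in 213 of 382 cases, with a median of 0.02, 6 past 1.5-fold in #1 and 3 in #3. ZNF124 had FPKM 2.70 in mock, 3.84 in #1 and 2.09 in #3 (0.85), and ZNF821 had 4.78, 3.30 and 5.85 (-0.81), both with intervals clear of 0. TRIM proteins were higher in #1 in 12 of 41 cases (median -0.04), with TRIM5, the retroviral restriction factor, at 7.31, 7.64 and 9.85 (-0.36), and 0 were past 1.5-fold. SLC transporters had 1 gene past 1.5-fold in each direction among 196, SLC25A48 (0.62) and SLC35E4 (-0.80). Of 56 listed keratins only 4 were compared, and all 4 were lower in #1, from KRT18 (-0.03) to KRT222. The latter had 2.62, 2.02 and 3.52 (-0.77, interval -1.28 to -0.27). HOX genes (13 of 34 higher in #1), kinesins (17 of 34), tubulins (7 of 22), proteasome subunits (20 of 43), nuclear respiratory chain subunits (39 of 83) and mitochondrial ribosomal proteins (42 of 76) had medians between -0.04 and 0.02. Clustered protocadherins, 55 of which were listed, had 0 genes at FPKM 1 in both libraries.

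Histone and long noncoding genes past 1.5-fold mostly had low FPKM. Of 11 clustered histone genes 3 (27.3%) were past 1.5-fold, HIST1H2AM and HIST1H2BO (0.71) higher in #1 and HIST1H3H higher in #3, and the 2 most abundant, HIST1H2BK with 26.4, 24.9 and 31.0 (-0.32) and HIST3H2A with 28.1, 26.5 and 27.0 (-0.03), were not. Of 61 antisense RNA genes 8 were past 1.5-fold, 4 in each direction, and this share, like that of the histone genes, stands against 2.17% of all genes. HOXD-AS2, from the HOXD cluster, had 6.10 in mock, 8.77 in #1 and 2.60 in #3 (1.71, interval 0.93 to 2.49), and BOLA3-AS1 had 4.16, 3.02 and 6.78 (-1.14, interval -1.65 to -0.63). Of 20 LINC genes, 8 were higher in #1, with a median of -0.10 and 0 past 1.5-fold. The 341 genes named by LOC numbers, mostly uncharacterized loci, had 11 past 1.5-fold in each direction, against 1.05% and 1.12% of all genes. The libraries were stranded, and counting used the strand.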

How the data were processed

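Per the labels and the study's methods, TruSeq stranded mRNA libraries were sequenced in 75-base single-end mode, mapped to hg19 with TopHat2 2.0.13, Bowtie2 2.2.3 and SAMtools 0.1.19, and quantified with Cuffdiff of Cufflinks 2.2.1 in strand-specific mode. The authors deposited 1 FPKM value per gene and library. The gene annotation and the scaling between libraries are not given in the sources used here. No value was rescaled.

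Genes with FPKM of at least 1 in both guide libraries were compared by log2(FPKM + 0.1), with 1.5-fold as the threshold. Depth was estimated from the lowest values of genes with 1 transcript of more than 1000 bases, and reads per gene from the median GENCODE 44 transcript length (GRCh37) less 200 bases, which 96.16% of names matched at least by synonym. Counting intervals (95%) assume Poisson reads, were set where that transcript length was above 400 bases, not for small RNAs, and cover counting error only.

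Named were the 8 protein-coding and 6 other genes furthest apart in each direction, 6 of FPKM at least 50, up to 3 list members past 1.5-fold in each direction, and members of small lists. Other genes were named after their values were seen, as examples of each list. The comparison and the lists were chosen with earlier results of these data known. Alternatives were other pseudocounts, filters, thresholds and scalings. The count of genes past 1.5-fold was tested on simulated data, and the whole read ratios and counting intervals were not. Python 3.11.15, NumPy 2.4.6, pandas 2.3.3 and matplotlib 3.10.9 were used. Some genes and 1 gene list are not reported here.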

Additional observations from a re-analysis of the deposited data

Results flagged for a closer look

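For 9 genes with FPKM of at least 1 in every library, the guides lay on opposite sides of mock, more than 1.5-fold above it in one guide library and more than 1.5-fold below it in the other. With 1 library per condition this difference was not tested. Above mock with sgL1ASP #1 and below it with sgL1ASP #3 were MIR922, with a log2 difference between the guides of 3.31, SNORD83A with 1.751, CBR3 with 1.344, SNORA40 with 1.334 and SNORA71A with 1.333. The reverse was seen for LOC100240735 with -1.262, SNORD100 with -1.833, SNORA45 with -2.244 and SNORA26 with -2.245. SNORA40 had FPKM 58.5 in mock, 88.9 in #1 and 35.2 in #3, a ratio of 2, 3 and 1 whole reads. LOC100240735, an uncharacterized locus, had 1.77 in mock, 1.11 in #1 and 2.79 in #3. Of the 9 genes, 7 are genes of small RNAs.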

How the results depend on the processing

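With 1 library per condition, leaving out a replicate was not possible. No paired analysis was possible because nothing was replicated. The counts of genes more than 1.5-fold higher in sgL1ASP #1 (131) and in sgL1ASP #3 (139) were 62 and 73 with a pseudocount of 1, 27 and 31 with FPKM of at least 5 in both libraries, 316 and 297 with FPKM of at least 1 in either, 1199 and 1076 with no filter, 30 and 34 with a 2-fold threshold, and 0 and 3 with at least 100 estimated reads in both, a limit added after seeing the data. The balance of the directions thus turned with the filter. The median difference of clustered histone genes was -0.161 with FPKM of at least 5, -0.160 with the filter on either library and -0.159 with no filter. With the filter on either library and with none, C/D box snoRNA genes stood at -0.137 and -0.137, H/ACA snoRNA and Cajal body RNA genes at 0.242 and 0.336, and microRNA genes at 0.326 and 0.165, so that the sign of the latter 2 groups turned. Rescaling to the same sum shifted every difference by about 0.026. Of 90 named genes, 46 moved by more than 0.1 with the larger pseudocount and 0 changed sign.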
